A study of Mus musculus with 8 samples.

Results

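The type I interferon response was followed here through 39 genes of a mouse leukaemia transcriptome, chosen by symbol as interferon-stimulated genes, RNA sensors and STAT or IRF factors. All 39 were among the 23361 genes of the authors' deposited table. Of these members, 33 reached 1 FPKM (fragments per kilobase, relative to the fragments in the library) in at least 1 group, as did 11158 of all genes. The RNA, poly(A) selected, came from established leukaemia lines on the 129S6 background that grew from bone marrow carrying the fusion oncogene MLL-AF9 and were kept in medium with interleukin 3. The floxed line (genotype Cdc73fl/fl CreERT2) was compared with a line wild type for the gene (Cdc73 +/+ CreERT2), each after 24 or 48 h with 7.5 nM 4-hydroxytamoxifen (4OHT). CreERT2 is a recombinase that becomes active when it binds 4OHT, and both lines carried it and received 4OHT, so the wild type cells share the recombinase, the drug and the oncogene. The product of Cdc73 belongs to the PAF1 complex, which accompanies RNA polymerase II during elongation.

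Each of the 4 groups had 2 biological duplicates, which the authors had already combined, so every level below is the authors' group value, with no SD and no replicate count. A gene is said to be called, and to have risen or fallen, where the authors' q for floxed against wild type cells was under 0.05 at that time. The targeted gene stood at 5.96 FPKM in floxed cells and 26.2 FPKM in wild type cells at 24 h and at 5.45 FPKM in floxed cells and 26.9 FPKM in wild type cells at 48 h, lower by call at both times, and it shares its locus entry with another gene. The lines are separate populations and libraries without 4OHT were not analysed here, so a difference that was present before 4OHT is contained in every genotype comparison. Myeloid markers chosen to check the label were present: Ptprc, the pan-leukocyte surface phosphatase, lay between 43.7 and 78.1 FPKM and Mpo, the myeloperoxidase of primary granules, between 1011 and 1986 FPKM. In bulk RNA, fewer cells of a kind and less RNA per cell cannot be told apart.

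Type I interferons are secreted proteins that bind the receptor IFNAR1/IFNAR2 and activate the kinases JAK1 and TYK2. These phosphorylate STAT proteins, which join IRF9 to form ISGF3, a factor that binds interferon-stimulated response elements in the promoters of target genes. Targets include sensors of foreign RNA, enzymes and membrane proteins that restrict viruses, and feedback inhibitors such as USP18. Many cells keep a low tonic level of these transcripts without infection.

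At 24 h most of the interferon genes were lower in floxed than in wild type cells. At 48 h the share called higher exceeded that of all genes, and the share called lower did not. Of the 33 members at 1 FPKM or more, 22 fell and 0 rose at 24 h. That is 66.7% lower, against 14.2% of 10987 tested genes called lower and 13.4% called higher. At 48 h, 8 of the 32 members with a test were lower, 25% against 31% of 11039 tested genes, and 15 were higher, 46.9% against 25.7%. Without a filter on level, 25 of 36 tested members were called lower at 24 h (14.4% of 11908 genes), while 8 were lower and 16 higher of 33 tested at 48 h (29.4% and 26.8% of 12173 genes). Of the 33, 6 reached 1 FPKM only in wild type cells at 24 h and so could enter only through that group, namely Oas2, Oas3, Oasl2, Ifit1, Usp18 and Rtp4. With a filter of 1 FPKM in at least 2 groups, 18 of 27 members were lower at 24 h (66.7%), against 14.4% of 10607 tested genes. Gbp2 and Xaf1 passed this filter only with wild type cells at 24 h as 1 of the groups. The median difference of the 33, floxed minus wild type, was -0.92 at 24 h and 0.24 at 48 h on the log2(FPKM + 1) scale, which understates changes of low genes. Over all 11158 genes the median was -0.01 at 24 h and -0.06 at 48 h.

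**Figure D1:**
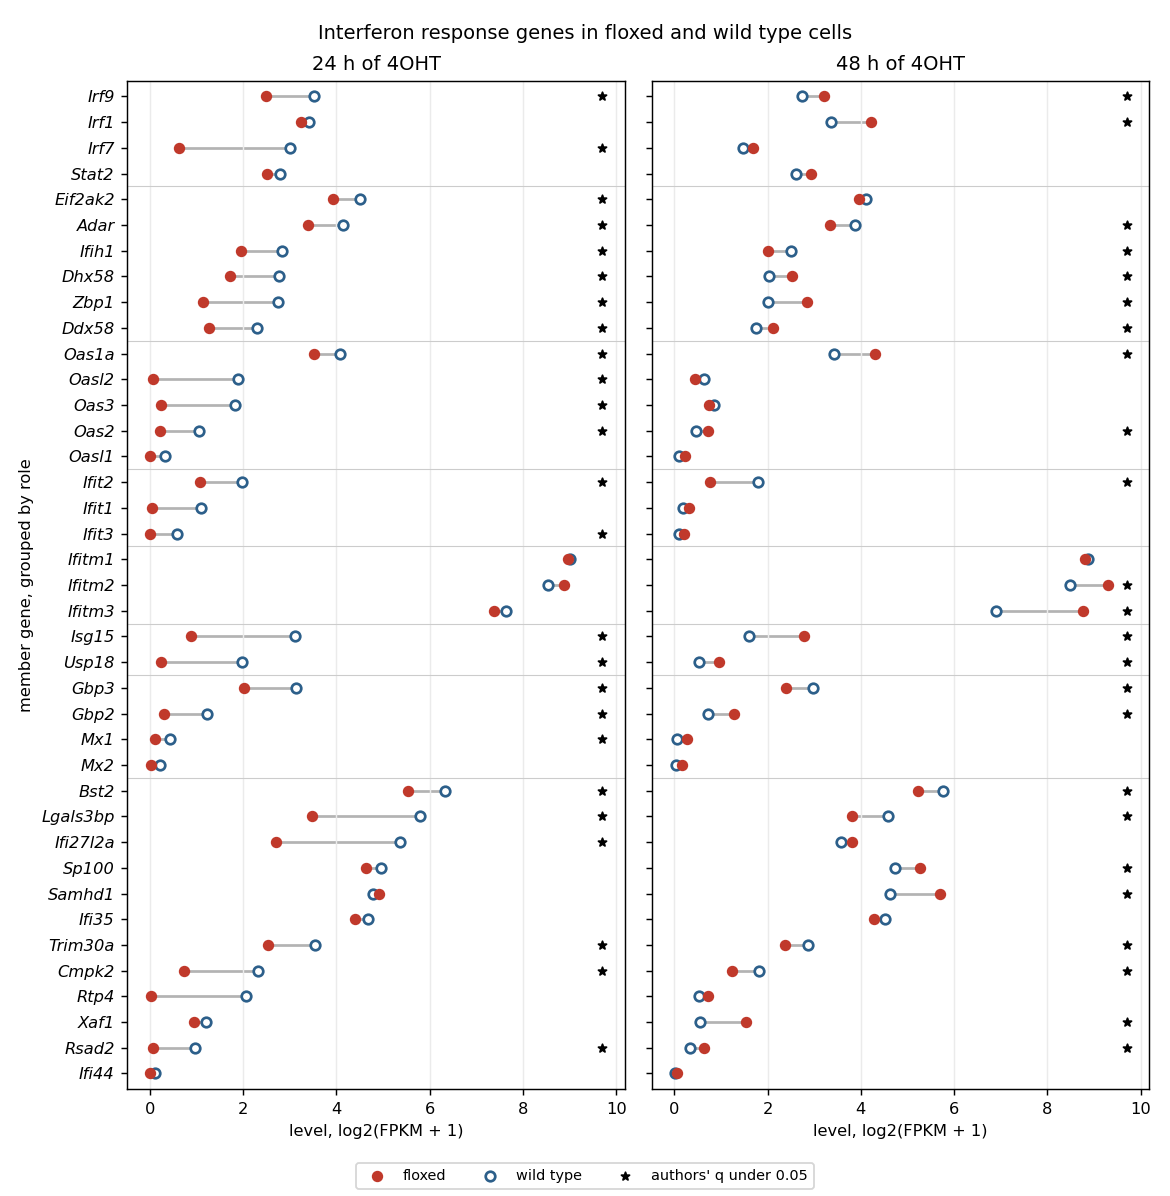
Levels of the 39 members as log2(FPKM + 1), 24 h at left and 48 h at right, with 1 point per group: filled for floxed, open for wild type. A star marks the authors' q under 0.05. At 24 h the floxed point lies left of the wild type point for 37 members, and at 48 h for 13.

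The values of both lines differed between the times, mostly in opposite directions. In wild type cells 33 of 33 members were lower at 48 h than at 24 h, where 55.2% of all 11158 genes were. In floxed cells 27 of 33 were higher at 48 h than at 24 h, against 43.2% of all genes, and 27 members (81.8%) did both, against 26.6%. The median change from 24 to 48 h was 0.51 in floxed and -0.60 in wild type cells, where all genes had -0.08 in floxed and -0.01 in wild type cells. In wild type cells 7 members (21.2%) were lower at 48 h by 1 log2 unit or more, a size reached by 0.538% of all genes, and 0 were higher by that much, against 0.376%. In floxed cells 5 members (15.2%) were higher by that much, against 4.8% of all genes, and 0 lower, against 1.37%. The 6 that passed only through wild type cells at 24 h had to be lower in that line at 48 h, and all are among those that did both. Among the 27 members at 1 FPKM or more in at least 2 groups, 27 were lower in wild type cells at 48 h (55.3% of 10656 genes) and 4 by 1 log2 unit or more (0.422%). For Gbp2 and Xaf1 this direction was still fixed, because they passed through wild type cells at 24 h but not at 48 h. The wild type median was -0.52 under that filter, and the share that did both was not computed under it. The table holds no test between times and does not say whether the times were scaled in 1 run, so these are sizes without a call. The 33 of 33 in wild type cells stayed at 33 when groups were rescaled to the same sum, rescaled by the median ratio or quantile normalized, and the count in floxed cells was 25 under the first and 28 under the other scalings.

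**Figure D2:**
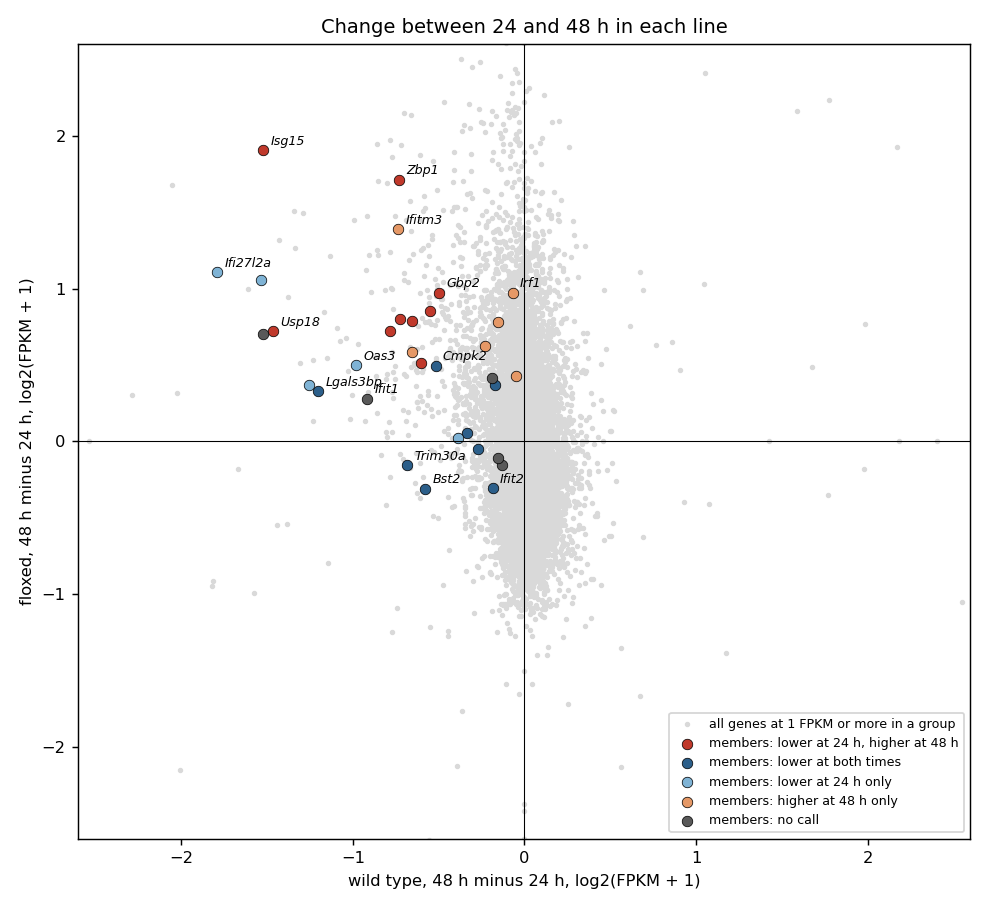
Change from 24 to 48 h on the log2(FPKM + 1) scale in floxed cells (vertical) and wild type cells (horizontal). Grey points are the 11158 genes at 1 FPKM or more in a group, of which 113 lie beyond the axes, and coloured points are the 33 members by call pattern. Every member lies left of 0 and 27 lie above 0.

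The highest level was found in wild type cells at 24 h for 23 of the 33 members and in floxed cells at 48 h for the other 10, where all genes had shares of 23.9% and 35.7%. For the 6 members that passed the filter only through wild type cells at 24 h that group was fixed. Among the 27 members at 1 FPKM or more in at least 2 groups it was the highest for 17 (63%), against 24.6% of 10656 genes under the same filter. Neither floxed cells at 24 h nor wild type cells at 48 h were the highest group for any of the 33 (18.9% and 21.5% of all genes). Ifi27l2a, an interferon-induced gene of the ISG12 family (ENSMUSG00000079017.3, chr12:103442167-103443680 on the minus strand), stood at 5.49 FPKM in floxed cells and 40.0 FPKM in wild type cells at 24 h and at 13.0 FPKM in floxed cells and 10.9 FPKM in wild type cells at 48 h. Its 24 h difference was called and its 48 h difference was not (q = 0.368 in the authors' deposited table). Wild type cells alone differed 3.68-fold between the times, lower at 48 h, and floxed cells 2.36-fold, higher at 48 h.

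The signalling factors did not move as a block. Irf7, the factor that amplifies type I interferon production (ENSMUSG00000025498.15, chr7:141262706-141266481 on the minus strand), had 0.543 FPKM in floxed cells and 7.0 FPKM in wild type cells at 24 h, called lower. At 48 h Irf7 had 2.21 FPKM in floxed cells and 1.76 FPKM in wild type cells, with no call. Irf9, the DNA-binding subunit of ISGF3, fell 2.27-fold at 24 h, with 4.62 FPKM in floxed cells and 10.5 FPKM in wild type cells, and rose 1.45-fold at 48 h, with 8.26 FPKM in floxed cells and 5.68 FPKM in wild type cells. Stat2, which carries the transactivation domain of ISGF3, had 4.67 FPKM in floxed cells and 5.95 FPKM in wild type cells at 24 h and 6.56 FPKM in floxed cells and 5.11 FPKM in wild type cells at 48 h, and neither difference was called (q = 0.0706 and q = 0.0755 in the authors' deposited table). Irf1, a factor induced by both interferon classes, had 8.47 FPKM in floxed cells and 9.7 FPKM in wild type cells at 24 h without a call. At 48 h it was 1.91-fold higher, at 17.6 FPKM in floxed cells and 9.2 FPKM in wild type cells, while wild type cells differed by -0.07 on the log2(FPKM + 1) scale between the times. Thus the ISGF3 subunit Irf9 and the amplifier Irf7 were called lower at 24 h, whereas Stat2 and Irf1 were not.

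Among the sensors of RNA and other nucleic acids, all 6 were lower at 24 h, and 3 were higher and 2 lower at 48 h, where all tested genes had 14.2% lower at 24 h and 25.7% higher and 31% lower at 48 h. The 2 of 6 lower at 48 h is close to the share of all genes. Zbp1, a sensor of Z-form nucleic acid that can trigger necroptosis, had 1.2 FPKM in floxed cells and 5.66 FPKM in wild type cells at 24 h, a 4.73-fold fall. At 48 h Zbp1 had 6.19 FPKM in floxed cells and 3.0 FPKM in wild type cells, a 2.06-fold rise. Ddx58, which encodes the RNA helicase RIG-I, had 1.39 FPKM in floxed cells and 3.91 FPKM in wild type cells at 24 h and 3.31 FPKM in floxed cells and 2.35 FPKM in wild type cells at 48 h. Dhx58, which encodes its relative LGP2, had 2.3 FPKM in floxed cells and 5.78 FPKM in wild type cells at 24 h and 4.73 FPKM in floxed cells and 3.09 FPKM in wild type cells at 48 h. RIG-I and LGP2 genes were thus called lower and then higher in floxed cells. The third helicase gene of the family, Ifih1, which encodes MDA5, was called lower at both times, with 2.85 FPKM in floxed cells and 6.1 FPKM in wild type cells at 24 h and 2.99 FPKM in floxed cells and 4.64 FPKM in wild type cells at 48 h. Adar, the enzyme that edits adenosine to inosine in double-stranded RNA, had 9.48 FPKM in floxed cells and 16.7 FPKM in wild type cells at 24 h and 9.14 FPKM in floxed cells and 13.7 FPKM in wild type cells at 48 h, lower at both. Adar shares its locus entry with another gene, and 16.8% of its exonic bases lie under exons of Chrnb2. Eif2ak2, the kinase PKR that halts translation on double-stranded RNA, fell 1.51-fold at 24 h, with 14.3 FPKM in floxed cells and 21.6 FPKM in wild type cells. At 48 h Eif2ak2 had 14.5 FPKM in floxed cells and 16.2 FPKM in wild type cells, with no call.

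The oligoadenylate synthetases make short 2′-5′-linked oligonucleotides that switch on RNase L. Oas1a, Oas2 and Oas3 lie in a cluster on chromosome 5, and the related Oasl1 and Oasl2 lie elsewhere on the same chromosome. Oas1a had the highest levels of the family, 10.4 FPKM in floxed cells and 15.8 FPKM in wild type cells at 24 h, a 1.52-fold fall. At 48 h it had 18.6 FPKM in floxed cells and 9.65 FPKM in wild type cells, a 1.93-fold rise. Oas2 was called in the same directions at low level, with 0.155 FPKM in floxed cells and 1.08 FPKM in wild type cells at 24 h and 0.647 FPKM in floxed cells and 0.375 FPKM in wild type cells at 48 h. Oas3 had 0.186 FPKM in floxed cells and 2.56 FPKM in wild type cells at 24 h, where it was called lower, and 0.676 FPKM in floxed cells and 0.803 FPKM in wild type cells at 48 h, with no call. Oasl2 had 0.0456 FPKM in floxed cells and 2.68 FPKM in wild type cells at 24 h, called lower, and 0.349 FPKM in floxed cells and 0.540 FPKM in wild type cells at 48 h, not called. Oasl1 never reached 1 FPKM and was listed at 0 in floxed cells at 24 h, against 0.257 FPKM in wild type cells, and had 0.170 FPKM in floxed cells and 0.07 FPKM in wild type cells at 48 h. Reads of closely similar paralogues may have been divided unevenly between them, so levels in the Oas1, Ifit, Gbp and Slfn families are uncertain.

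Isg15 and Usp18 form the modifier system of the response: ISG15 is a ubiquitin-like protein joined to other proteins, and USP18 removes it and also blocks signalling at IFNAR2. Isg15 (ENSMUSG00000035692.6, chr4:156199424-156200818 on the minus strand) had 0.831 FPKM in floxed cells and 7.67 FPKM in wild type cells at 24 h, called lower. At 48 h Isg15 had 5.86 FPKM in floxed cells and 2.02 FPKM in wild type cells, called higher at 2.9-fold. Its difference between genotypes moved by 3.43 on the log2(FPKM + 1) scale between the times, the most of the 39 members. Between 24 and 48 h the level changed by 1.91 in floxed cells and by -1.52 in wild type cells. Usp18 had 0.173 FPKM in floxed cells and 2.95 FPKM in wild type cells at 24 h and 0.932 FPKM in floxed cells and 0.433 FPKM in wild type cells at 48 h, called lower and then higher. On the log2(FPKM + 1) scale, the change in wild type cells made up 67.0% of the movement of its genotype difference. Usp18 reached 1 FPKM only in wild type cells at 24 h. The added 1 FPKM shrinks its change in floxed cells more, so this share depends on that scale.

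Isg15, Gbp2 and Oas1a were called in opposite directions at 24 and 48 h and hold, within the 250 bases before the start, a form of the interferon-stimulated response element. The letters searched were GAAA, any 2 bases and GAAA again, which read TTTC, any 2 bases and TTTC on the other strand. The sequences are shown because these are the members of that pattern with such a match before the start and a level of 1 FPKM or more. Of the 9 members of the pattern at that level, 5 had a promoter sequence to search. For Isg15 and Oas1a the whole 250 bases are given, and for Gbp2, whose start lies further upstream in GENCODE M21 than in RefSeq, the match with 6 bases on each side. Sequences are from RefSeq (GRCm38.p6, the assembly behind mm10), 5′ to 3′ on the strand of the gene, with matches in capitals, and overlapping matches run together.
Isg15 (chr4:156200819-156201068, minus strand): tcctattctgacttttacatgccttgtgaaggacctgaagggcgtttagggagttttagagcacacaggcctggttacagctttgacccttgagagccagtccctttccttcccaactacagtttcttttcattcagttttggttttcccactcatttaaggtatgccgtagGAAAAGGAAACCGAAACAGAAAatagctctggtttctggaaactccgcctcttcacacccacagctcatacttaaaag
Gbp2 (chr3:142620598-142620619, plus strand): ttttagTTTCACTTTCactgtc
Oas1a (chr5:120907526-120907775, minus strand): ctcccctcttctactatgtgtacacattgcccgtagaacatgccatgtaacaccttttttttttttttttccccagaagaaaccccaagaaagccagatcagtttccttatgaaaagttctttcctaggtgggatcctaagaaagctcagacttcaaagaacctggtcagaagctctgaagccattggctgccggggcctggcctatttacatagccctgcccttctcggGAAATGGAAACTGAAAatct
The Isg15 promoter holds 3 overlapping matches, starting 78 bases before the start. Gbp2 has 1 match on the other strand, from 59 to 50 bases before the start, and Oas1a has 2 overlapping matches, the first 20 bases before the start.

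Of the 39 members, 31 were found in the RefSeq promoter table. In the window from 250 bases before to 50 after a start, 16 of 31 (51.6%) held the response element letters on either strand, against 3.99% of 27025 genes with a window and 3.81% of 8239 of them at 1 FPKM or more. With the 250 bases before the start alone the share was 38.7%, against 3.46%. The letters TTCNNNGAA, a form of the gamma-activated site, were in 9 of 31 windows (29%), against 9.55% of genes. Counted over all 31, whatever their level, the response element letters were found in 5 of 6 members called lower at 24 h and higher at 48 h, in 4 of 8 lower at both times, in 3 of 5 lower at 24 h alone, in 2 of 6 higher at 48 h alone and in 2 of 6 with no call. These counts are a description of letters in a window and carry no test. A match before the start in each of the other members that have any is given for comparison, with 6 bases on each side in lower case and the match in capitals, on the strand of the gene.
Bst2 (chr8:71537587-71537608, minus strand): ttccagGAAAATGAAActgaaa
Gbp3 (chr3:142559993-142560014, plus strand): acacagTTTCAGTTTCtatttc
Ifit1 (chr19:34640779-34640800, plus strand): cttcagTTTCACTTTCcagtct
Ifit3 (chr19:34583367-34583388, plus strand): ggtaagTTTCACTTTCctcttc
Ifitm2 (chr7:140955992-140956013, minus strand): caacagGAAAAGGAAAttgcta
Oas3 (chr5:120777719-120777740, minus strand): ggaggaGAAAACGAAAgtgaag
Rsad2 (chr12:26456557-26456578, minus strand): tccaacTTTCATTTTCagaaaa
Stat2 (chr10:128270270-128270291, plus strand): ccctggTTTCAGTTTCctttcc
Trim30a (chr7:104465214-104465235, minus strand): ctttagTTTCTTTTTCtcagtt
Rsad2, under 1 FPKM in every group, was called lower and then higher. Bst2, Gbp3 and Trim30a were called lower at both times, Ifit3 and Oas3 lower at 24 h alone, Ifitm2 higher at 48 h alone, and Ifit1 and Stat2 at neither time.

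The IFIT genes, neighbours on chromosome 19 whose products bind viral RNA 5′ ends or translation factors, were low in every group. Ifit2 had the highest levels, 1.1 FPKM in floxed cells and 2.92 FPKM in wild type cells at 24 h and 0.699 FPKM in floxed cells and 2.45 FPKM in wild type cells at 48 h. Ifit2 was called lower at both times and was lower in floxed cells at 48 h than at 24 h, unlike 27 of the 33 members. Ifit1 had 0.0249 FPKM in floxed cells and 1.14 FPKM in wild type cells at 24 h, just outside the threshold (q = 0.0505 in the authors' deposited table), and 0.243 FPKM in floxed cells and 0.132 FPKM in wild type cells at 48 h. Ifit3 was listed at 0 in floxed cells at 24 h, against 0.483 FPKM in wild type cells, and had 0.145 FPKM in floxed cells and 0.0624 FPKM in wild type cells at 48 h.

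The IFITM genes, which encode membrane proteins that hinder virus entry and lie together on chromosome 7, were the most abundant members and were not called at 24 h. Ifitm1 had 498 FPKM in floxed cells and 514 FPKM in wild type cells at 24 h and 447 FPKM in floxed cells and 469.7 FPKM in wild type cells at 48 h, with no call at either time. Ifitm2 had 469 FPKM in floxed cells and 372 FPKM in wild type cells at 24 h, 1 of 2 expressed members with a higher value in floxed cells then, the other being Samhd1. At 48 h it rose 1.75-fold, with 630.0 FPKM in floxed cells and 359.8 FPKM in wild type cells. Ifitm3 (ENSMUSG00000025492.6, chr7:141009586-141010770 on the minus strand) had 166 FPKM in floxed cells and 198 FPKM in wild type cells at 24 h without a call. It had 435 FPKM in floxed cells and 118 FPKM in wild type cells at 48 h, the widest 48 h difference of the members on the log2(FPKM + 1) scale at 1.87. The family shares sequence, and 40.9% of the exonic bases of Ifitm2 lie under exons of Gm45717, so the division of reads among these genes is uncertain.

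The interferon-induced GTPases divided as well. Gbp3, a guanylate-binding protein that acts on pathogen-containing vacuoles, was lower at both times, with 3.06 FPKM in floxed cells and 7.8 FPKM in wild type cells at 24 h and 4.24 FPKM in floxed cells and 6.82 FPKM in wild type cells at 48 h. Its neighbour on chromosome 3, Gbp2, was lower and then higher, with 0.232 FPKM in floxed cells and 1.33 FPKM in wild type cells at 24 h and 1.42 FPKM in floxed cells and 0.653 FPKM in wild type cells at 48 h. The Mx genes, of a family of dynamin-like inhibitors of viral replication, stayed under 1 FPKM in every group. Mx1 had 0.084 FPKM in floxed cells and 0.338 FPKM in wild type cells at 24 h, called lower, and 0.202 FPKM in floxed cells and 0.0445 FPKM in wild type cells at 48 h. Mx2, listed as a polymorphic pseudogene in GENCODE M21, had at most 0.154 FPKM, in wild type cells at 24 h.

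The remaining 12 members restrict viruses by varied means or are known mainly as interferon-induced transcripts, and 6 of them were lower at 24 h, among them Rsad2. Without a filter on level, 14.4% of 11908 tested genes were lower then. Of the 12, Rsad2 and Ifi44 were under 1 FPKM in every group. Lgals3bp, a secreted glycoprotein that binds galectins (ENSMUSG00000033880.11, chr11:118392751-118402092 on the minus strand), fell 5.33-fold at 24 h, with 10.1 FPKM in floxed cells and 54.1 FPKM in wild type cells. It was still 1.77-fold lower at 48 h, with 13.0 FPKM in floxed cells and 23.0 FPKM in wild type cells, a narrower gap that came with a 2.36-fold lower level in wild type cells at 48 h than at 24 h. Bst2, the tetherin that holds budding virus at the membrane, had 45.2 FPKM in floxed cells and 79.5 FPKM in wild type cells at 24 h and 36.3 FPKM in floxed cells and 52.9 FPKM in wild type cells at 48 h. Trim30a, a ubiquitin ligase that damps inflammatory signalling, had 4.81 FPKM in floxed cells and 10.6 FPKM in wild type cells at 24 h and 4.21 FPKM in floxed cells and 6.24 FPKM in wild type cells at 48 h. Bst2 and Trim30a were thus lower at both times, and both were lower at 48 h than at 24 h in both lines.

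Cmpk2 and Rsad2 are neighbours on chromosome 12 and act in nucleotide metabolism, Rsad2 as viperin, which makes a chain-terminating nucleotide. Cmpk2 had 0.661 FPKM in floxed cells and 4.0 FPKM in wild type cells at 24 h and 1.34 FPKM in floxed cells and 2.49 FPKM in wild type cells at 48 h, lower at both. Rsad2 had 0.0388 FPKM in floxed cells and 0.950 FPKM in wild type cells at 24 h and 0.555 FPKM in floxed cells and 0.260 FPKM in wild type cells at 48 h, called lower and then higher. The pair therefore differed in call at 48 h. Samhd1, which depletes deoxynucleotides, had 29.2 FPKM in floxed cells and 26.4 FPKM in wild type cells at 24 h without a call. It rose 2.16-fold at 48 h, with 50.9 FPKM in floxed cells and 23.6 FPKM in wild type cells. Sp100, a component of nuclear bodies, had 23.8 FPKM in floxed cells and 30.2 FPKM in wild type cells at 24 h without a call. It rose 1.45-fold at 48 h, with 37.3 FPKM in floxed cells and 25.7 FPKM in wild type cells. Xaf1, a pro-apoptotic antagonist of XIAP, had 0.933 FPKM in floxed cells and 1.29 FPKM in wild type cells at 24 h and 1.9 FPKM in floxed cells and 0.453 FPKM in wild type cells at 48 h, where it was called higher. These 3 genes were called at 48 h alone.

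Some members were not called at either time. Ifi35, which binds the partner protein NMI, had 20.1 FPKM in floxed cells and 24.6 FPKM in wild type cells at 24 h and 18.5 FPKM in floxed cells and 21.9 FPKM in wild type cells at 48 h, and 16.8% of its exonic bases lie under Gm11626. Rtp4, a receptor transport protein, had 0.0117 FPKM in floxed cells and 3.14 FPKM in wild type cells at 24 h, which the authors' deposited table did not call (q = 0.426). At 48 h Rtp4 had 0.645 FPKM in floxed cells and 0.438 FPKM in wild type cells. Ifi44 did not exceed 0.0734 FPKM, its level in wild type cells at 24 h, and was listed at 0 in floxed cells then. In all, 6 members stayed under 1 FPKM everywhere, with values from 0 to 0.950: Oasl1, Ifit3, Mx1, Mx2, Rsad2 and Ifi44.

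Set by call pattern, 9 members at 1 FPKM or more were lower at 24 h and higher at 48 h: Irf9, Ddx58, Dhx58, Zbp1, Oas1a, Oas2, Isg15, Usp18 and Gbp2. That is 28.1% of the 32 members tested at both times, against 1.08% of 10960 genes. Of the 9, Oas2 and Usp18 passed the filter only through wild type cells at 24 h. With 1 FPKM asked in at least 2 groups, 7 were called lower and then higher. The share of all genes under that filter was not computed. Another 8 were lower at both times (25% against 11.2%), 5 were lower at 24 h alone (15.6% against 2.03%) and 6 higher at 48 h alone (18.8% against 14.2%, close to all genes). Of the 5, Oas3 and Oasl2 passed only through wild type cells at 24 h. No call was made for 5, of which 4 were tested at both times (12.5% against 38.1%). In the 9, the median change from 24 to 48 h was 0.80 in floxed cells and -0.73 in wild type cells. In the 8 lower at both times the medians were 0.00 in floxed and -0.43 in wild type cells. For the 6 higher at 48 h alone they were 0.70 in floxed and -0.19 in wild type cells. The patterns are set by the calls, so in the 9 the change in floxed cells had to exceed that in wild type cells. With 1 value per group there is no test of how the genotype difference itself changed. Calls in opposite directions numbered 2 when a difference of at least 1.5-fold (after adding 1 FPKM) was asked at each time (Zbp1 and Isg15). They numbered 5 among the 21 members whose exons do not overlap another gene. Shares of all genes under these settings were not computed. Without a filter on level Rsad2 joined them, making 10 of 33 members tested at both times, against 1.09% of 11751 genes.

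**Figure D3:**
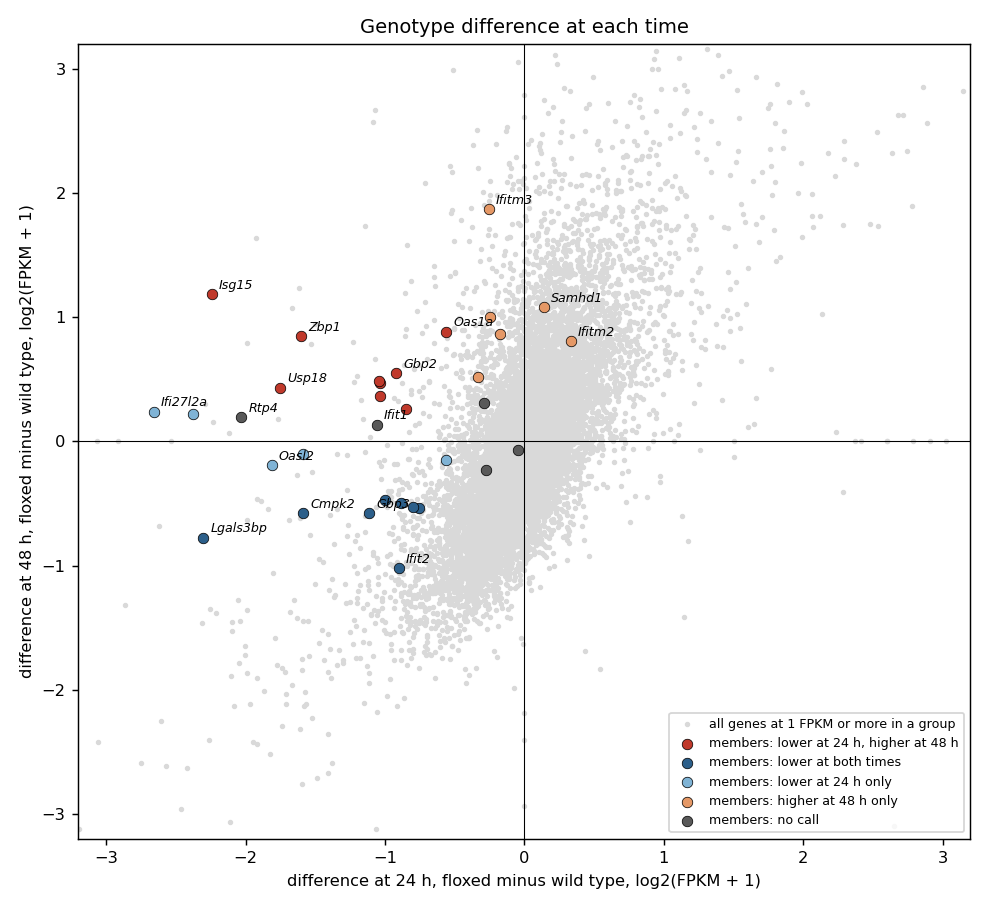
Genotype difference, floxed minus wild type on the log2(FPKM + 1) scale, at 24 h (horizontal) and 48 h (vertical). Grey points are the 11158 genes at 1 FPKM or more in a group, of which 140 lie beyond the axes, and coloured points are the 33 members by call pattern. The 9 members called lower and then higher lie at the upper left, below 0 at 24 h and above 0 at 48 h.

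The ligands were barely present. Of 20 interferon genes listed, 17 were in the table, 11 of these were at 0 in every group, and none exceeded 0.0747 FPKM (Ifnz in floxed cells at 48 h). Ifnb1, the first interferon made by most cells, and Ifng were listed at 0 in all 4 groups. The receptor was present throughout. Ifnar1 had 11.9 FPKM in floxed cells and 14.3 FPKM in wild type cells at 24 h and 12.0 FPKM in floxed cells and 13.8 FPKM in wild type cells at 48 h. Ifnar2 had 58.3 FPKM in floxed cells and 72.3 FPKM in wild type cells at 24 h and 79.1 FPKM in floxed cells and 64.8 FPKM in wild type cells at 48 h, and no difference of either chain was called. Of the interferon gamma receptor chains, Ifngr1 had 153 FPKM in floxed cells and 194 FPKM in wild type cells at 24 h and 104 FPKM in floxed cells and 189 FPKM in wild type cells at 48 h, called lower at 48 h. Ifngr2 had 21.6 FPKM in floxed cells and 25.6 FPKM in wild type cells at 24 h and 41.4 FPKM in floxed cells and 23.4 FPKM in wild type cells at 48 h, called higher at 48 h.

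The counts of the lists that follow stand beside all tested genes at 1 FPKM or more, of which 14.2% were lower and 13.4% higher at 24 h, and 31% lower and 25.7% higher at 48 h. In the list of 9 receptor, kinase and STAT genes, 0 were lower and 1 higher at 24 h, and 1 was lower and 4 higher at 48 h. The kinase gene Jak1 was the 1 called at 24 h, with 47.1 FPKM in floxed cells and 35.2 FPKM in wild type cells, and stood at 65.2 FPKM in floxed cells and 34.7 FPKM in wild type cells at 48 h, called higher at both times, and it shares its locus entry with another gene. Jak2 and Stat3 were called higher at 48 h, with 15.7 FPKM in floxed cells and 9.66 FPKM in wild type cells for Jak2 and 50.7 FPKM in floxed cells and 29.8 FPKM in wild type cells for Stat3. Of 17 expressed upstream sensing genes, 1 was lower and 2 higher at 24 h, and 2 were lower and 10 higher at 48 h. Trim25, the ligase that activates RIG-I, was lower at 24 h, with 19.2 FPKM in floxed cells and 25.9 FPKM in wild type cells, and higher at 48 h, with 35.4 FPKM in floxed cells and 21.4 FPKM in wild type cells. Ikbke, a kinase that phosphorylates IRF factors, had 12.6 FPKM in floxed cells and 8.54 FPKM in wild type cells at 24 h, called higher. Irf5, a factor downstream of Toll-like receptors, had 13.1 FPKM in floxed cells and 9.72 FPKM in wild type cells at 24 h and 23.2 FPKM in floxed cells and 6.17 FPKM in wild type cells at 48 h, higher at both. At 48 h the endosomal RNA receptor gene Tlr7 had 4.17 FPKM in floxed cells and 1.74 FPKM in wild type cells and was called higher. Its adaptor gene Myd88 had 80.8 FPKM in floxed cells and 36.5 FPKM in wild type cells, called higher too. Tlr8, a related receptor gene, had 1.79 FPKM in floxed cells and 1.04 FPKM in wild type cells at 48 h, and the ligase gene Trim56 had 10.6 FPKM in floxed cells and 4.84 FPKM in wild type cells, also called higher.

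Of 10 expressed negative regulators, 0 were lower and 1 higher at 24 h, and 2 were lower and 6 higher at 48 h. Socs1, an inhibitor of JAK kinases that is itself induced by cytokines, had 5.92 FPKM in floxed cells and 3.67 FPKM in wild type cells at 24 h and 8.0 FPKM in floxed cells and 3.86 FPKM in wild type cells at 48 h, called higher at both times. Socs3, which acts mainly on gp130 receptors, had 3.38 FPKM in floxed cells and 0.802 FPKM in wild type cells at 48 h, where it was called higher. Nlrx1, a mitochondrial NOD-like receptor protein, had 44.8 FPKM in floxed cells and 16.1 FPKM in wild type cells at 48 h, and the phosphatase gene Ptpn6 had 297 FPKM in floxed cells and 144 FPKM in wild type cells, both called higher. Rnf125, a ligase that marks RIG-I for degradation, had 16.5 FPKM in floxed cells and 30.7 FPKM in wild type cells at 48 h and was called lower.

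Interferon targets outside the 39 were also read. Of 44 expressed genes in that list, 30 were lower and 1 higher at 24 h (68.2% and 2.27%), and 11 were lower and 21 higher at 48 h (25% and 47.7%). In wild type cells 43 of the 44 were lower at 48 h than at 24 h, against 55.2% of all 11158 genes. Of the 44, 28 had their highest level in wild type cells at 24 h, against 23.9%. Mnda, Phf11b and Slfn8 reached 1 FPKM only in that group, so both results were fixed for them. They are also among the 30 called lower at 24 h. Shares under a filter of 1 FPKM in at least 2 groups were not computed for this list. Calls of lower and then higher were made for 11, Mnda and Phf11b among them, against 1.08% of 10960 tested genes. Ifi204, a nuclear DNA-binding protein of the p200 family, was 1 of these, with 0.886 FPKM in floxed cells and 4.79 FPKM in wild type cells at 24 h and 4.37 FPKM in floxed cells and 1.28 FPKM in wild type cells at 48 h. Its relative Mnda had 0.167 FPKM in floxed cells and 1.05 FPKM in wild type cells at 24 h and 0.771 FPKM in floxed cells and 0.329 FPKM in wild type cells at 48 h, with the same calls. Epsti1 had 0.519 FPKM in floxed cells and 2.68 FPKM in wild type cells at 24 h and 0.817 FPKM in floxed cells and 1.38 FPKM in wild type cells at 48 h, lower at both. Phf11b had 0.342 FPKM in floxed cells and 1.52 FPKM in wild type cells at 24 h and 0.677 FPKM in floxed cells and 0.337 FPKM in wild type cells at 48 h, lower and then higher. Slfn5, a schlafen gene that shares its locus entry with other genes, had 0.752 FPKM in floxed cells and 5.97 FPKM in wild type cells at 24 h and 3.94 FPKM in floxed cells and 1.85 FPKM in wild type cells at 48 h, called lower and then higher. The chemokine gene Cxcl10, which shares an entry too, had 1.83 FPKM in floxed cells and 1.65 FPKM in wild type cells at 24 h without a call and 4.91 FPKM in floxed cells and 0.844 FPKM in wild type cells at 48 h, called higher. Slfn1 had 0.863 FPKM in floxed cells and 1.67 FPKM in wild type cells at 24 h and 7.68 FPKM in floxed cells and 0.926 FPKM in wild type cells at 48 h. Slfn2 had 48.9 FPKM in floxed cells and 70.8 FPKM in wild type cells at 24 h and 177 FPKM in floxed cells and 48.7 FPKM in wild type cells at 48 h, and both were called lower and then higher. Ifi30, the lysosomal thiol reductase of antigen processing, was the 1 called higher at 24 h, with 89.3 FPKM in floxed cells and 50.6 FPKM in wild type cells, and it had 143 FPKM in floxed cells and 42.3 FPKM in wild type cells at 48 h.

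**Figure D4:**
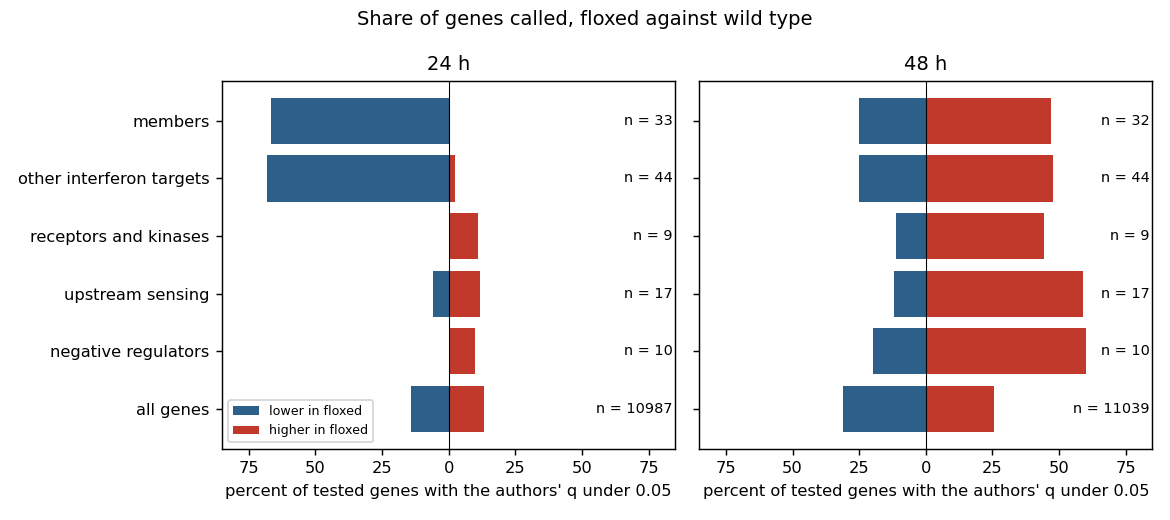
Percent of tested genes at 1 FPKM or more that were called lower (left of 0) or higher (right of 0) in floxed than in wild type cells, by gene list, at 24 h and 48 h, with the number tested at the right. At 24 h the members and the other interferon targets reach 66.7% and 68.2% lower, and all genes 14.2%. Both of these lists include genes that reached 1 FPKM only in wild type cells at 24 h.

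Markers of other cell types were examined beside these values. Plasmacytoid dendritic cells, the main interferon-producing cells of blood, were represented by 10 genes. Siglech, Ccr9 and Klk1 never exceeded 0.0252 FPKM, Spib and Pacsin1 never exceeded 0.0526 FPKM, and Ly6d and Cd209d were at 0 in every group. Cox6a2, which shares its locus entry with other genes, had 0.521 FPKM in floxed cells and 1.29 FPKM in wild type cells at 24 h. At 48 h Cox6a2 had 0.451 FPKM in floxed cells and 1.03 FPKM in wild type cells, with no call at either time. The summed level of the 10 was 22.6 FPKM in floxed and 20.8 FPKM in wild type cells at 24 h, and 19.5 FPKM in floxed and 20.2 FPKM in wild type cells at 48 h, most of it from Runx2 and Tcf4. Of these 10 genes Tcf4 was the 1 called, with 5.7 FPKM in floxed cells and 3.82 FPKM in wild type cells at 24 h. Of 14 lymphoid, erythroid, mast and basophil markers in the table, 2 reached 1 FPKM and both were called higher at both times. Mcpt8, a basophil protease, had 8.77 FPKM in floxed cells and 3.16 FPKM in wild type cells at 24 h and 5.92 FPKM in floxed cells and 3.52 FPKM in wild type cells at 48 h. Gata1, the erythroid and eosinophil factor, had 0.856 FPKM in floxed cells and 0.0723 FPKM in wild type cells at 24 h and 2.08 FPKM in floxed cells and 0.174 FPKM in wild type cells at 48 h. The summed level of those 14 was 10.4 FPKM in floxed and 3.79 FPKM in wild type cells at 24 h, and 8.86 FPKM in floxed and 4.31 FPKM in wild type cells at 48 h.

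Genes of the myeloid lineage were called in both directions. Lyz2, the lysozyme of macrophages and granulocytes, had 916 FPKM in floxed cells and 1003 FPKM in wild type cells at 24 h and 3333 FPKM in floxed cells and 587 FPKM in wild type cells at 48 h, called higher at 48 h. Cebpe, a factor of granulocyte maturation, had 148 FPKM in floxed cells and 69.4 FPKM in wild type cells at 24 h and 313 FPKM in floxed cells and 70.3 FPKM in wild type cells at 48 h, higher at both. Cebpa, a factor of earlier myeloid differentiation, had 35.7 FPKM in floxed cells and 68.8 FPKM in wild type cells at 24 h, called lower, and 59.7 FPKM in floxed cells and 74.3 FPKM in wild type cells at 48 h. Kit, the stem cell factor receptor, had 11.8 FPKM in floxed cells and 17.9 FPKM in wild type cells at 24 h and 5.42 FPKM in floxed cells and 17.1 FPKM in wild type cells at 48 h, lower at both. Of the leukaemia-linked homeobox genes, Hoxa10 had 92.5 FPKM in floxed cells and 52.7 FPKM in wild type cells at 24 h, called higher. Meis1 had 7.88 FPKM in floxed cells and 13.0 FPKM in wild type cells at 24 h, called lower. Mpo had 1986 FPKM in floxed cells and 1145 FPKM in wild type cells at 24 h, called higher, and 1011 FPKM in floxed cells and 1368 FPKM in wild type cells at 48 h, called lower. At 48 h Csf2rb, the common beta chain of cytokine receptors, had 109.9 FPKM in floxed cells and 41.1 FPKM in wild type cells and was called higher. The integrin gene Itgam had 100.1 FPKM in floxed cells and 45.8 FPKM in wild type cells at 48 h, called higher too. Of the 14 myeloid markers in the table, 3 were lower and 5 higher at 24 h, and 4 were lower and 9 higher at 48 h. Of all tested genes 14.2% were lower and 13.4% higher at 24 h, and 31% lower and 25.7% higher at 48 h. The summed levels of the 14 were 6556 FPKM in floxed and 6016 FPKM in wild type cells at 24 h and 7022 FPKM in floxed and 6020 FPKM in wild type cells at 48 h. The part of these markers in the interferon gene values was not tested.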

How the data were processed

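Gene levels of 8 poly(A) RNA libraries, 2 in each of 4 groups, were read from the table the authors deposited. Per the file headers it holds 1 FPKM value per gene and group and, for each time, the authors' q-value of the genotype comparison. The submitters' processing notes name Bowtie2, Cufflinks 2.1, Cuffdiff and mm10, with no role or order. The annotation, strandedness and filters were not given in the sources used here. FPKM is relative to all other RNA, so global loss or gain of RNA would not show. Without strand, overlapping genes cannot be told apart: 13 members share exonic bases with another gene in GENCODE M21, 1 of them its locus entry.

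Depth per library is unknown. Over genes under 0.05 FPKM in both groups, the most common ratio of floxed to wild type values was 0.836 at 24 h (63 of 1272 genes within 0.002) and 1.07 at 48 h (41 of 994). If these are single fragments, which was not tested, the lower ratio means more depth in floxed cells at 24 h. No interval or detection limit was computed.

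A call was an authors' q under 0.05, with direction from the FPKM values. Tested genes were those with q under 1, after leaving out 27 genes with names turned into date numbers. The smallest q is 0.000449 at 24 h and 0.000165 at 48 h. Folds are ratios of deposited FPKM, given where both groups reach 1 FPKM. With 1 value per group no fit, standard error or replicate check could be made. Named genes were all members, and from each other list up to 5 called genes per time with the widest FPKM ratio among those at 1 FPKM or more, plus ligands and receptors. The members and lists were chosen with earlier results of these data known. The call rule and the motif search (Python 3.11.15, pandas 2.3.3) were run on simulated data with q-values set in advance and planted motifs. That run checks the code alone, and neither the counts nor false motif matches were checked in it. Alternatives tried were another q threshold, a minimum fold, filters on level, pseudocounts, scalings, the promoter window, and leaving out genes with shared loci or exons.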

Additional observations from a re-analysis of the deposited data

Results flagged for a closer look

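The difference between floxed and wild type cells was called in opposite directions at 24 h and 48 h for 10 members, lower and then higher in floxed cells in each case. What drew attention is that sign change. The difference between the times was not tested, because there is 1 value per group. On the log2(FPKM + 1) scale the genotype difference moved from 24 to 48 h by 3.43 for Isg15, 2.45 for Zbp1, 2.18 for Usp18, 1.53 for Dhx58 and 1.5 for Irf9. It moved by 1.47 for Gbp2, 1.44 for Oas1a, 1.4 for Ddx58, 1.21 for Rsad2 and 1.11 for Oas2. The upward direction of these movements was fixed, because the members were picked by a call of lower and then higher. Over all 11158 genes, which were not picked in that way, the median movement was -0.07. Rsad2, Oas2 and Usp18 were under 1 FPKM in both groups at 48 h.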

How the results depend on the processing

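No paired analysis was possible because the table holds 1 value per group, and for the same reason no replicate could be left out. Of 85 values computed under another setting, 66 stayed within the limits used (1.5 times for a count, 0.1 for a log2 median, the 95% binomial interval for a share) and none changed direction. Asking for at least 1.5-fold gave 2 of the 33 members lower and 8 higher at 48 h and 2 called in opposite directions. Only 22 members reached 5 FPKM, of which 14 were lower at 24 h and 5 were called in opposite directions. Leaving out members that share exonic bases was an alternative chosen after seeing the data. So were a mean of 1 FPKM or more over the groups and 1 FPKM or more in at least 2 groups. Of the 21 members left without shared exonic bases, 8 were higher at 48 h and 5 were called in opposite directions. The shares of all genes called at 1.5-fold, at 5 FPKM or without shared exonic bases were not computed. The median difference at 24 h was -1.29 with a pseudocount of 0.1, -0.50 with 5 and -0.78 at 5 FPKM or more. At 48 h it was 0.47 with a pseudocount of 0.1, 0.094 with 5, 0.094 under quantile normalization and 0.13 without shared exons. From 24 to 48 h the median was 0.92 and 0.22 in floxed cells with pseudocounts of 0.1 and 5, and -0.74 and -0.28 in wild type cells, where it was -0.48 at 5 FPKM or more. Smaller pseudocounts weigh low genes more by construction; for the other settings the cause was not tested. Rescaling to the same sum moved the 48 h median of all genes from -0.06 to -0.15 and that of the members to 0.16. Depth limits the members under 1 FPKM most, and their levels carry no error here.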
